A study of Mus musculus with 4 samples.

Results

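The lysosomal genes described here are 44 genes that encode the acid hydrolases of the lysosome, their activators, the proteins of the lysosomal membrane and the proton pump that acidifies it. They were measured on Affymetrix mouse expression arrays. The signal of a probe set is its MAS5 value, a linear intensity that Affymetrix's own algorithm draws from the set's probes. Members were the probe sets annotated with a single symbol from the list, and each gene was read from its probe set with the highest mean log2(signal + 16) over the 4 arrays. All 44 genes were found among the 18193 genes with a probe set of 1 symbol. All 44 also passed the filter on low signals (2 or more of the 4 arrays over their own 40th percentile), among 13139 genes that did, and 1 of them, Atp6v0d2, passed it through the neutrophil arrays alone.

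Granulocytic myeloid-derived suppressor cells (G-MDSC, 2 samples) were isolated from the spleens of mice that had carried subcutaneous EL4 tumours, a mouse T cell lymphoma line, for 3.5 weeks, by positive selection of Ly6G on microbeads. The study's design text calls them CD11b+Ly6G+Ly6Clow. Neutrophils (2 samples) were washed from the peritoneum of mice given 2 intraperitoneal injections of 1.5 ml of 12% casein 16 h apart and killed 3 h later, and were depleted of F4/80-positive cells before the same Ly6G selection. All mice were female C57BL/6, red cells were lysed in all samples, and 100 ng of total RNA went into each labelling. Cell kind, tissue, tumour, casein and the F4/80 step changed together between the groups and cannot be told apart. Whether a group's samples were taken from separate mice or from pools is not in the labels, so the p-values reflect the spread of these arrays alone, and that spread may be technical.

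Lysosomes break down proteins, sugars, sulfated polymers and lipids delivered by endocytosis, phagocytosis and autophagy. Most of their hydrolases are tagged with mannose 6-phosphate in the Golgi and carried to the organelle by sorting receptors, and many of their genes are driven by the basic helix-loop-helix factors TFEB, TFE3 and MITF through an E-box in the promoter. In granulocytes the azurophil granules are related to lysosomes and hold several of the same hydrolases, whereas macrophages are rich in lysosomes throughout.

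Neutrophils replicate 2 stood apart from the other arrays at low signals, where its 40th percentile was 133 and those of the others lay between 45.7 and 52.6. Over the kept probe sets, not independent of one another, Pearson's r was 0.959 within G-MDSC and 0.895 within neutrophils. With G-MDSC replicates 1 and 2, r was 0.880 and 0.873 for neutrophils replicate 1, and 0.775 and 0.800 for neutrophils replicate 2. The summed signal of 19 macrophage markers was 18076 and 17525 in the G-MDSC arrays, against 42837 and 64607 in the neutrophil arrays. Of the 19, 10 were lower in G-MDSC with 0 higher, where 8.05% of all genes tested were lower and 8.30% higher. Summed signals of 10 mast cell markers were 18104 and 21743 in the G-MDSC arrays, against 40728 and 30622 in the neutrophil arrays, with 5 of 9 tested lower. Some of those 5 passed the filter through the neutrophil arrays alone, as named below. Those of 11 dendritic cell and class II markers were 24169 and 25338 in the G-MDSC arrays, against 58231 and 75053 in the neutrophil arrays, with 7 lower (3 without G-MDSC replicate 1, 4 without replicate 2). After median scaling the macrophage markers gave 5 lower and 1 higher, the mast cell markers 5 lower and the dendritic cell and class II markers 2 lower. No marker was at 0 in any array, but a signal above 0 does not by itself show that a transcript was present. Mcpt4, for example, had 10.4 and 7.22 in the G-MDSC arrays, below the 40th percentile of each. In bulk RNA, fewer cells of a type and less RNA per cell cannot be told apart, and the part of these cells in the differences below was not tested.

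The lysosomal genes moved in both directions between the 2 cell kinds. In G-MDSC both acid phosphatases (Acp5 and Acp2), the membrane proteins Cd68 and Lamp1, the protease Ctsz, the glycosidase Glb1 and the lipid genes Lipa and Npc2 were lower. Higher in G-MDSC were 3 enzymes of sugar and sulfate removal (Arsb, Fuca1 and Man2b1) and 3 enzymes of lipid and acyl removal (Galc, Ppt1 and Smpd1). By limma with Benjamini-Hochberg adjustment over all 13139 genes at a threshold of 0.05, 6 of the 44 were higher (13.6%, against 8.30% of all genes tested) and 8 were lower (18.2%, against 8.05%). The arrays of the groups did not overlap for 32 of the 44 (72.7%, against 59.5% of all genes tested). The median log2 difference, always given as G-MDSC minus neutrophils, was -0.31 for the 44 and -0.18 for all genes tested, a gap of -0.13. Without neutrophils replicate 1 that gap turned to 0.25. Differences and folds are on the log2(signal + 16) scale, which understates changes of dim genes. Single values ran from -2.59 for Acp5 to 2.0 for Arsb, with 18 genes above 0 and 26 below.

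**Figure D1:**
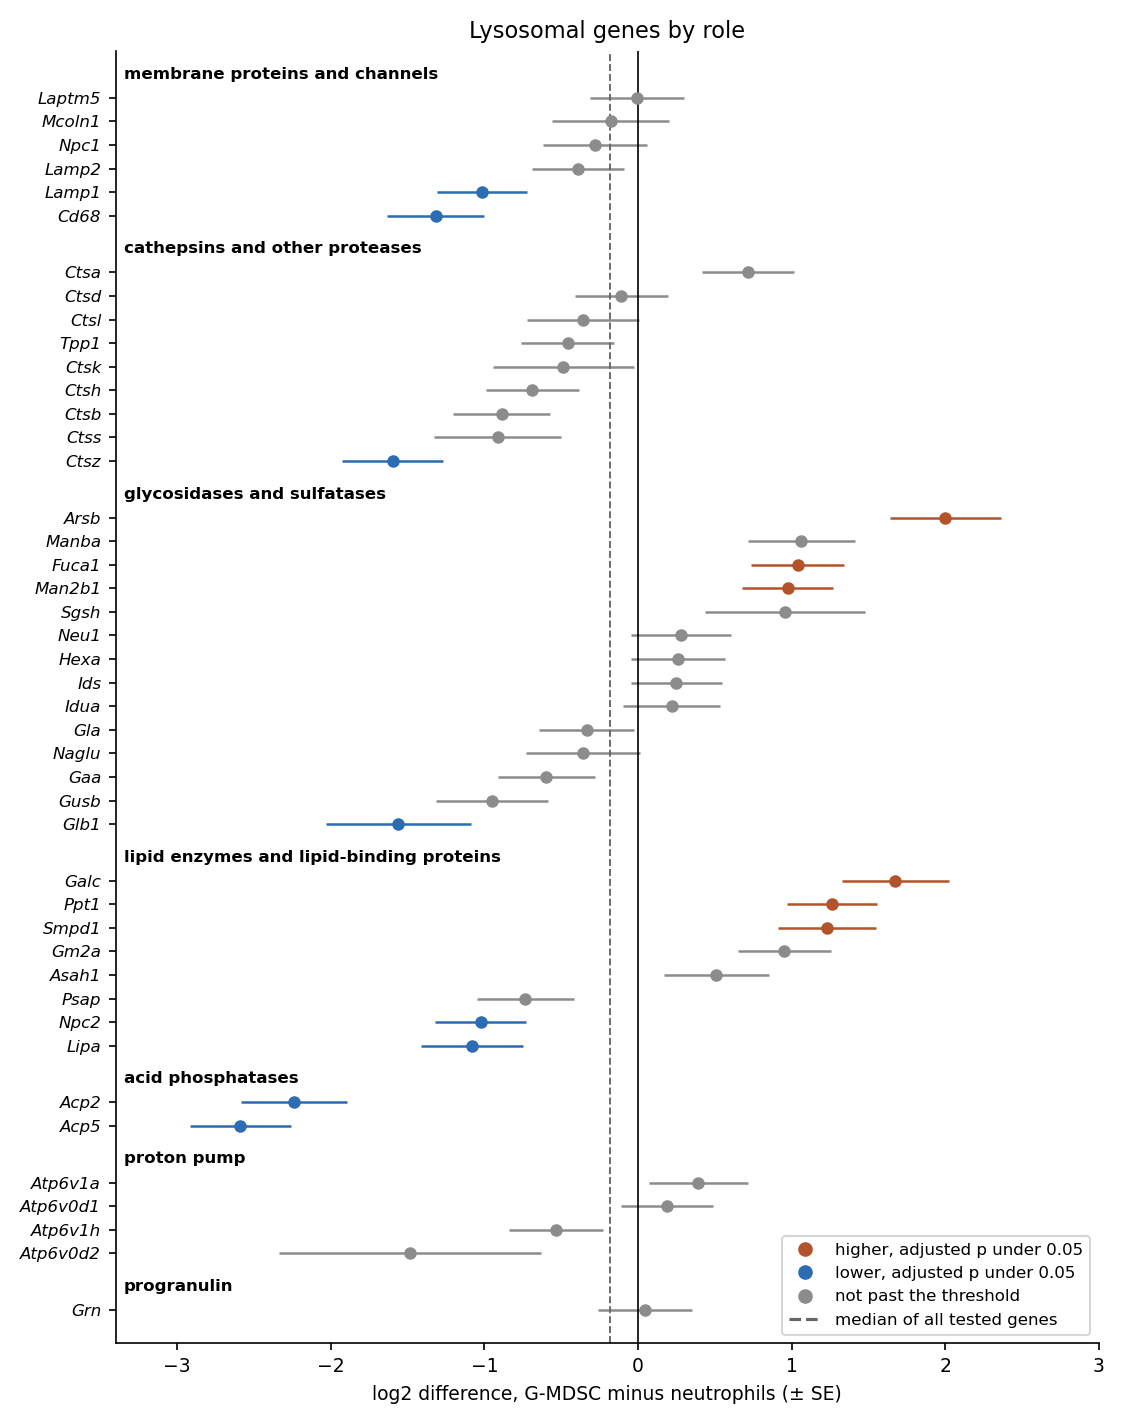
Log2 difference, G-MDSC minus neutrophils, of the 44 lysosomal genes (horizontal axis, points with standard errors of the limma fit, 2 arrays per group), grouped by role down the page. Orange genes were higher and blue genes lower at an adjusted p under 0.05, grey genes passed neither way, and the dashed line marks the median of all tested genes at -0.18. Both acid phosphatases lie below -2, and the 6 higher genes are all glycosidases, sulfatases or lipid enzymes.

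These counts depended on the arrays and on their scaling. The number of all genes called moved in the same direction each time. The shifts below are therefore no result about the members alone. Without neutrophils replicate 2, 10 members were higher and 10 lower, and without neutrophils replicate 1 there were 9 higher and 14 lower. Leaving out G-MDSC replicate 1 gave 0 higher and 3 lower, and leaving out G-MDSC replicate 2 gave 2 and 4, each remaining lone array being assumed to vary like the other group. When arrays were scaled to a common median in place of the deposited trimmed mean, 3 members were higher and 0 lower, and 2 of the 14 calls, Arsb and Galc, were kept. That scaling put the median of all genes at 0.41, against -0.18 as deposited, and the members then lay 0.10 below it. Under that scaling limma called 1311 of all 13139 genes, against 2149 as deposited.

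For each of the 14 called genes, the 2 groups of arrays did not overlap, as for 59.5% of all genes tested. With 2 arrays per group a call nearly requires this, so it adds no support. The plot of signals shows them by array.

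**Figure D2:**
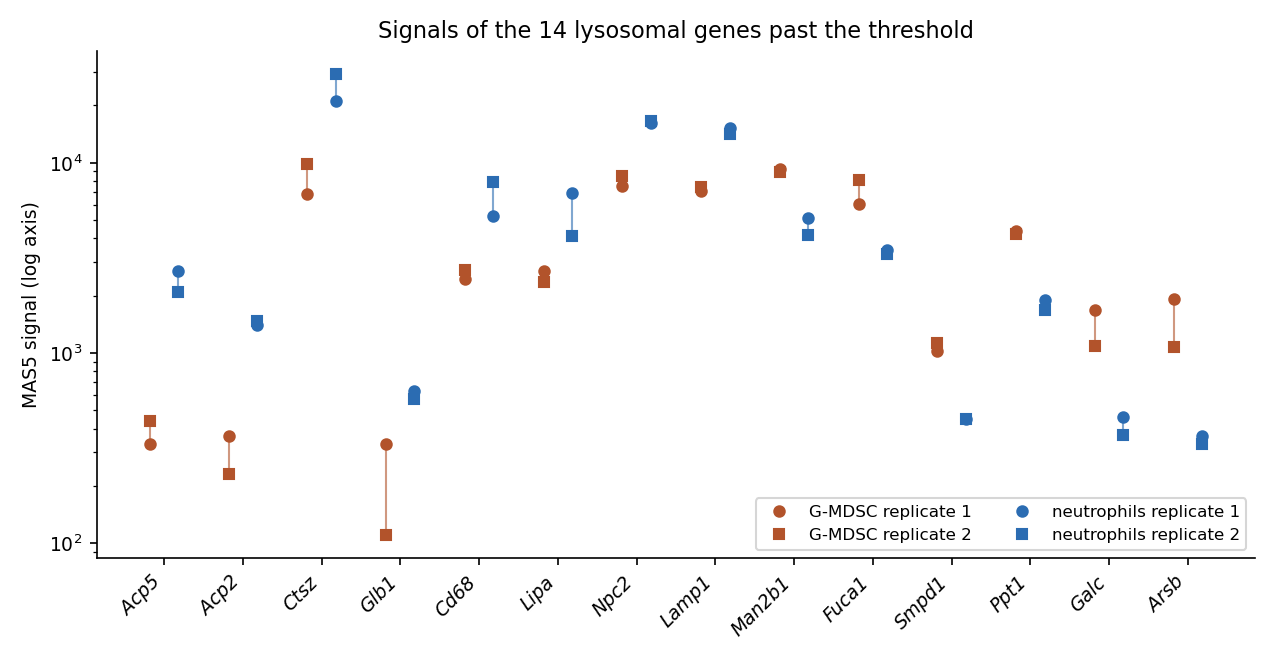
MAS5 signal of the 14 lysosomal genes that passed the threshold (vertical log axis) in each array, with G-MDSC in orange to the left and neutrophils in blue to the right of each gene, circles for replicate 1 and squares for replicate 2. Genes run from the lowest log2 difference (Acp5, -2.59) to the highest (Arsb, 2.0), and in no gene do the arrays of the groups overlap. Heights of different genes are not comparable, since probe sets differ in brightness.

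Promoter sequences were set beside the differences because the lysosomal factors bind the palindromic E-box CACGTG, often within the longer palindrome TCACGTGA. Both were searched on both strands in a window of 300 bases, 250 before and 50 after each RefSeq start on GRCm38.p6, and each TCACGTGA also holds a CACGTG. Of the 38 members with a window, 12 held CACGTG (31.6%, against 8.09% of 27025 genes) and 6 held TCACGTGA (15.8%, against 1.12%). No window was used for Asah1, Ctsb, Ctsh, Npc1, Atp6v0d2 and Atp6v1h. The 250 bases before the start follow for 5 genes, written 5′ to 3′ on the gene's strand with each CACGTG in capitals: Lamp1 (4 matches, lower in G-MDSC, chr8:13158911-13159160, plus strand), Glb1 (1 match, lower, chr9:114400828-114401077, plus strand), Gla (2 matches within TCACGTGA, not past the threshold, chrX:134601006-134601255, minus strand), and Arsb (chr13:93771429-93771678, plus strand) and Galc (chr12:98259460-98259709, minus strand), which rose most and hold none.
Lamp1: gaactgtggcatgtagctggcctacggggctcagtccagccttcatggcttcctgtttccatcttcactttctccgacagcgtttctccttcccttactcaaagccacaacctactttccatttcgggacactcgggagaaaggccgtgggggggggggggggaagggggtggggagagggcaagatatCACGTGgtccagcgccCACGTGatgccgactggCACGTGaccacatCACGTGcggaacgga
Glb1: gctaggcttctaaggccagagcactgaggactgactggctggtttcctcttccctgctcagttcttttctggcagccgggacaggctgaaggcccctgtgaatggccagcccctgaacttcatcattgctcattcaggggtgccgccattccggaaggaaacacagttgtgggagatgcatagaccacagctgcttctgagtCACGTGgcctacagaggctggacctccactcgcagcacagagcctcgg
Gla: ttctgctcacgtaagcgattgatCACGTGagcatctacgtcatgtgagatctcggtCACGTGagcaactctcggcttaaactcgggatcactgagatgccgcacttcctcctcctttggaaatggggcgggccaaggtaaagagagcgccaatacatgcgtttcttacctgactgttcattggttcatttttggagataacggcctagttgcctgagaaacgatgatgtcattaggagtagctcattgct
Arsb: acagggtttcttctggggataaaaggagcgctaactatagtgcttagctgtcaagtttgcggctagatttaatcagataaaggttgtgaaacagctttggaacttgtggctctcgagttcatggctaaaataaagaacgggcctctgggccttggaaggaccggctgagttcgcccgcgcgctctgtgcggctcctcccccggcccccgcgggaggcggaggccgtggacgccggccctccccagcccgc
Galc: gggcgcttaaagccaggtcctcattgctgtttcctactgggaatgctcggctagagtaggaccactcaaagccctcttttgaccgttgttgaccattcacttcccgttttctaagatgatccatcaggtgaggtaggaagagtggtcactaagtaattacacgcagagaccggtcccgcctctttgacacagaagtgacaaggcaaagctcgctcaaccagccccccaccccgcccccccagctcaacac
The 4 matches of Lamp1 begin 61, 45, 28 and 15 bases before the start, that of Glb1 begins 48 bases before it, and those of Gla begin 227 and 194 bases before it. CACGTG was present in 0 of 6 windows of genes higher in G-MDSC, in 2 of 8 of genes lower and in 10 of 24 of genes that passed neither way. All 6 genes with TCACGTGA (Ctsd, Ctsa, Gla, Mcoln1, Atp6v0d1 and Atp6v1a) were among those that passed neither way. The median log2 difference was -0.26 for the 12 genes with CACGTG, with a range of -1.56 to 0.96. It was 0.021 for the 26 without, with a range of -2.59 to 2.0, so the 2 ranges overlapped over most of their length. These matches are letters in a window, not measured binding sites.

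**Figure D3:**
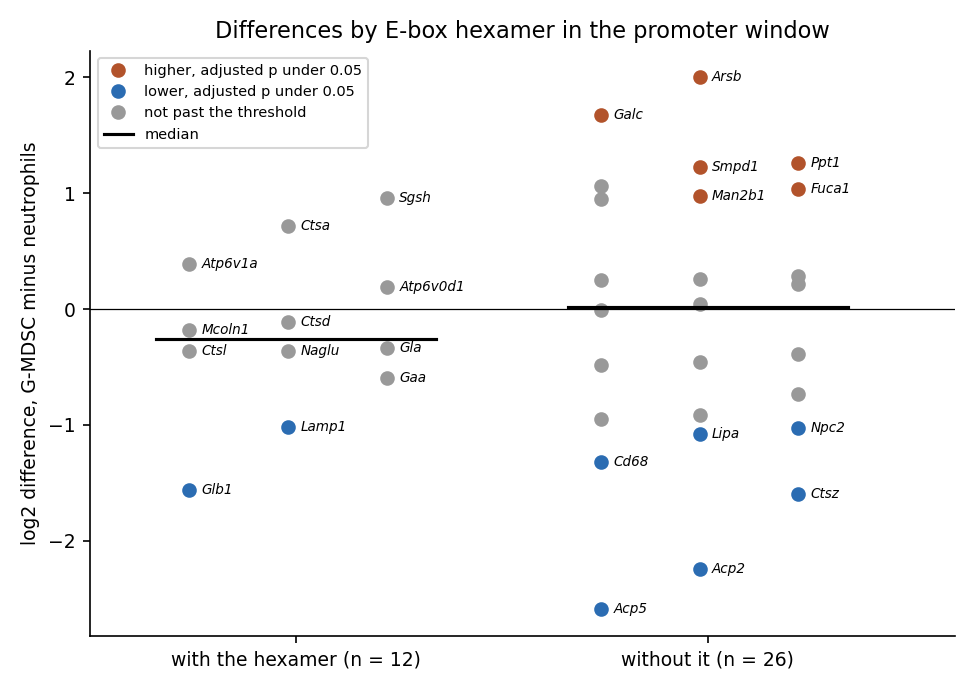
Log2 difference, G-MDSC minus neutrophils (vertical axis), of the 38 lysosomal genes with a promoter window, split by whether the window holds CACGTG (12 genes, left) or not (26 genes, right), with the group median as a bar at -0.26 and 0.021. Orange genes were higher, blue genes lower and grey genes not past the threshold. The 6 higher genes all stand on the right, and 2 of the 8 lower genes, Lamp1 and Glb1, stand on the left.

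Of the 6 membrane proteins and channels, Cd68 and Lamp1 were lower in G-MDSC and none was higher, with a median log2 difference of -0.34. The median was 0.29 after median scaling, which shifts all genes up, and -0.54 without neutrophils replicate 2. Cd68, the macrosialin of phagocyte lysosomes and itself a common macrophage marker, had signals of 2438 and 2717 in the G-MDSC arrays, against 5254 and 7900.0 in the neutrophil arrays, a log2 difference of -1.32 ± 0.32 (SE, adjusted p = 0.0158). Lamp1, one of the 2 heavily glycosylated proteins that line the lysosomal membrane, had 7070.1 and 7474 in the G-MDSC arrays, against 15238 and 14202 in the neutrophil arrays, a difference of -1.02 ± 0.29 (SE, adjusted p = 0.0361). Each G-MDSC array thus lay below each neutrophil array for both genes. Without G-MDSC replicate 1 the differences were -1.24 for Cd68 and -0.98 for Lamp1, and without replicate 2 they were -1.40 and -1.06, and none of these 4 passed the threshold. Lamp2, the second of the lining proteins, had 10509.7 and 13118 in the G-MDSC arrays, against 14809.5 and 15991 in the neutrophil arrays, a difference of -0.39 ± 0.30 (SE, adjusted p = 0.42), in the same direction as Lamp1 but not past the threshold. Its 4 probe sets ran from -0.39 to 0.25. Laptm5, a lysosomal protein of blood cells, had 13898 and 16614 in the G-MDSC arrays, against 16768 and 13904 in the neutrophil arrays, a difference of -0.007 ± 0.30 (SE, adjusted p = 0.99), and its 5 probe sets ran from -1.29 to 0.52. Mcoln1, the calcium channel of the lysosome, had 677 and 562 in the G-MDSC arrays, against 971 and 504 in the neutrophil arrays (log2 difference -0.18 ± 0.38, adjusted p = 0.781) and 3 probe sets from -0.41 to 0.46, and Npc1, which moves cholesterol out through the membrane, had 425 and 476 in the G-MDSC arrays, against 616 and 492 in the neutrophil arrays (-0.28 ± 0.34, adjusted p = 0.614). The 2 groups of arrays overlapped for Laptm5 and Mcoln1 and were separate for Lamp2 and Npc1.

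Of the 9 cathepsins and other proteases, 8 had a log2 difference below 0, but Ctsz alone passed the threshold, and the median was -0.49 (0.12 after median scaling, -0.33 with G-MDSC replicate 1 left out, -0.85 with neutrophils replicate 1 left out). Ctsz, a cysteine carboxypeptidase, had signals of 6843 and 9820.5 in the G-MDSC arrays, against 21008 and 29349 in the neutrophil arrays, a log2 difference of -1.60 ± 0.33 (SE, adjusted p = 0.0076). Its 3 probe sets agreed in direction, from -2.49 to -1.60. Its call was lost without G-MDSC replicate 1, at -1.34. Ctsb, a broad cysteine protease, had 14257 and 18209 in the G-MDSC arrays, against 26658 and 33388 in the neutrophil arrays (log2 difference -0.89 ± 0.31, adjusted p = 0.0801). Ctss, which trims the invariant chain of class II molecules, had 8436 and 20909.9 in the G-MDSC arrays, against 22040.0 and 28461 in the neutrophil arrays (-0.91 ± 0.41, adjusted p = 0.166). Both G-MDSC arrays lay under both neutrophil arrays for Ctsb and Ctss, yet neither difference passed. Ctsb passed as lower under 6 of 17 alternatives, among them quantile normalization (-0.71) and both other choices of probe set (-1.27 and -1.15). Ctss was -0.26 without G-MDSC replicate 1 and -1.57 without replicate 2, where it passed, and it passed under 4 of 17 alternatives. Ctsh, an aminopeptidase, had 2895 and 2626 in the G-MDSC arrays, against 3964 and 4992 in the neutrophil arrays (-0.69 ± 0.30, adjusted p = 0.152), with separate groups but not past the threshold. Ctsl, a cysteine endopeptidase, had 5311 and 7486 in the G-MDSC arrays, against 5886 and 11146 in the neutrophil arrays (-0.36 ± 0.36, adjusted p = 0.545), and its 2 probe sets were -0.36 and 0.90. Tpp1, which clips tripeptides from the ends of proteins, had 3069.7 and 3393 in the G-MDSC arrays, against 5072 and 3888 in the neutrophil arrays (-0.46 ± 0.30, adjusted p = 0.343), and its other probe set was 0.094. Ctsd, the main aspartic protease, had 14324 and 17656 in the G-MDSC arrays, against 17638 and 16698 in the neutrophil arrays (-0.11 ± 0.30, adjusted p = 0.833), with overlapping groups. Ctsk, the collagen protease of osteoclasts, had 175 and 222 in the G-MDSC arrays, against 191 and 415 in the neutrophil arrays (-0.49 ± 0.46, adjusted p = 0.516), with the highest value in neutrophils replicate 2. Ctsa, the carboxypeptidase that protects Glb1 and Neu1 in a complex, was the only one of the 9 above 0, at 6206 and 7981 in the G-MDSC arrays, against 4246 and 4309 in the neutrophil arrays (0.72 ± 0.30, adjusted p = 0.135), and its other probe set was -0.54.

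The 14 glycosidases and sulfatases went both ways, with 3 higher, 1 lower and a median log2 difference of 0.25. That median was 0.093 without neutrophils replicate 2 and 0.89 after median scaling. Arsb, which takes sulfate off dermatan and chondroitin sulfate, had signals of 1926 and 1079.8 in the G-MDSC arrays, against 366 and 331 in the neutrophil arrays, a log2 difference of 2.0 ± 0.36 (SE, adjusted p = 0.00384). Its second probe set went the other way, at -0.85, so the call rests on the brighter of 2 that disagree. That second set was dim, at 20.3 and 89.6 in the G-MDSC arrays, against 40.4 and 204 in the neutrophil arrays. In replicate 1 of both groups it lay below the 40th percentile of the array. Without G-MDSC replicate 1 the brighter was at 1.59 and did not pass. Fuca1, the fucosidase, had 6089 and 8099 in the G-MDSC arrays, against 3498 and 3322 in the neutrophil arrays, a difference of 1.04 ± 0.30 (SE, adjusted p = 0.0376), and its 4 probe sets ran from 0.68 to 1.22. Man2b1, the acid mannosidase, had 9300.3 and 8899.6 in the G-MDSC arrays, against 5140.1 and 4157 in the neutrophil arrays, a difference of 0.97 ± 0.30 (SE, adjusted p = 0.0456), and its other probe set was 3.33. For both genes each G-MDSC array was above each neutrophil array in the 4 signals. Without G-MDSC replicate 1 Fuca1 was 1.24 and Man2b1 0.94, and without replicate 2 they were 0.83 and 1.01, none past the threshold.

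Glb1, the galactosidase of gangliosides and keratan sulfate, was the 1 lower gene of the group, with 333 and 110.2 in the G-MDSC arrays, against 634 and 574 in the neutrophil arrays, a difference of -1.56 ± 0.47 (SE, adjusted p = 0.0443). G-MDSC replicate 2 was the lowest array by far, and without it the difference was -0.83 and did not pass, against -2.29 without G-MDSC replicate 1. Manba, the mannosidase that acts after Man2b1, had 815 and 629 in the G-MDSC arrays, against 376 and 297 in the neutrophil arrays (log2 difference 1.06 ± 0.35, adjusted p = 0.0593), separate but short of the threshold. Gusb, the glucuronidase, had 1795 and 912 in the G-MDSC arrays, against 2750.0 and 2251 in the neutrophil arrays (-0.95 ± 0.36, adjusted p = 0.105), lower in both G-MDSC arrays. Gaa, which degrades glycogen, had 613 and 632 in the G-MDSC arrays, against 1028 and 876 in the neutrophil arrays (-0.60 ± 0.32, adjusted p = 0.24). The differences of these 3 genes did not pass in either direction as reported. Manba passed as higher under 6 of 17 alternatives, and Gusb as lower under 4. Hexa, a subunit of hexosaminidase, had 7572 and 6704 in the G-MDSC arrays, against 6939.7 and 5100.4 in the neutrophil arrays (0.26 ± 0.31, adjusted p = 0.607), and Neu1, the sialidase, had 2359.9 and 3298 in the G-MDSC arrays, against 2689.9 and 1952 in the neutrophil arrays (0.28 ± 0.32, adjusted p = 0.597), with overlapping groups for both. The next 4 genes encode enzymes of heparan and dermatan sulfate breakdown, and none passed the threshold. Ids had 2058 and 2262 in the G-MDSC arrays, against 1736 and 1893 in the neutrophil arrays (0.25 ± 0.30, adjusted p = 0.611), with 4 probe sets from -0.56 to 0.79. Idua had 860.3 and 858 in the G-MDSC arrays, against 781 and 693 in the neutrophil arrays (0.22 ± 0.32, adjusted p = 0.677), and its other probe set was -0.052. Sgsh had 283 and 258 in the G-MDSC arrays, against 74.8 and 223 in the neutrophil arrays (0.96 ± 0.52, adjusted p = 0.249), where neutrophils replicate 1 alone was far below the rest, and its other probe set was -0.88. The last of them, Naglu, had 394 and 298 in the G-MDSC arrays, against 542 and 364 in the neutrophil arrays (-0.36 ± 0.37, adjusted p = 0.557) and overlapping groups. Gla, the galactosidase whose loss causes Fabry disease in people, had 815 and 940.2 in the G-MDSC arrays, against 1074 and 1144 in the neutrophil arrays (-0.34 ± 0.31, adjusted p = 0.507), and its other probe set was 0.42.

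The 8 lipid enzymes and lipid-binding proteins also went both ways, with 3 higher, 2 lower and a median log2 difference of 0.73 (1.37 after median scaling, 0.48 without G-MDSC replicate 2). Galc, which removes galactose from galactosylceramide of myelin and other membranes, had signals of 1685 and 1088 in the G-MDSC arrays, against 458 and 372 in the neutrophil arrays, a log2 difference of 1.68 ± 0.35 (SE, adjusted p = 0.00769). Its second probe set was 0.46, and without G-MDSC replicate 1 the difference was 1.36 and did not pass. Ppt1, which strips fatty acids from proteins, had 4358 and 4224 in the G-MDSC arrays, against 1891 and 1676 in the neutrophil arrays, a difference of 1.26 ± 0.29 (SE, adjusted p = 0.0137). Its 5 probe sets ran from -0.60 to 1.75 and so disagreed in sign. The one below 0 was dim, at 76.7 and 78.6 in the G-MDSC arrays, against 85.4 and 181 in the neutrophil arrays. Smpd1, the acid sphingomyelinase, had 1024 and 1132 in the G-MDSC arrays, against 451 and 449 in the neutrophil arrays, a difference of 1.23 ± 0.32 (SE, adjusted p = 0.0229), and its other probe set was 1.47. Galc was thus 3.20-fold, Ppt1 2.40-fold and Smpd1 2.34-fold higher in G-MDSC, with separate arrays. The calls of Ppt1 and Smpd1 were lost without either G-MDSC array, with differences of 1.24 and 1.30 without replicate 1 and of 1.28 and 1.16 without replicate 2.

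Lipa, the acid lipase that frees cholesterol and fatty acids from stored esters, had 2695 and 2354 in the G-MDSC arrays, against 6956 and 4112 in the neutrophil arrays, a difference of -1.08 ± 0.33 (SE, adjusted p = 0.048). The 2 neutrophil arrays differed from one another, and the difference was -0.70 with neutrophils replicate 1 left out, and -1.18 and -0.98 with G-MDSC replicate 1 or 2 left out, none of them past the threshold. Npc2, the soluble carrier that hands cholesterol to Npc1, had 7592 and 8499.7 in the G-MDSC arrays, against 16248 and 16487 in the neutrophil arrays, a difference of -1.03 ± 0.29 (SE, adjusted p = 0.0354). Its 4 probe sets ran from -1.03 to 0.087, and its call was lost without G-MDSC replicate 1 (-0.94) or 2 (-1.11). Gm2a, the activator that presents a ganglioside to hexosaminidase, had 14365 and 18785 in the G-MDSC arrays, against 8679 and 8282 in the neutrophil arrays. Its difference was 0.95 ± 0.30 (SE, adjusted p = 0.0542), the smallest adjusted p among the 30 members that did not pass. Gm2a passed as higher under 7 of 17 alternatives, among them quantile normalization (1.07). Psap, the precursor of the saposins that assist Galc, Asah1 and other lipid enzymes, had 15781 and 16065 in the G-MDSC arrays, against 31120.2 and 22526 in the neutrophil arrays (log2 difference -0.73 ± 0.31, adjusted p = 0.143). Asah1, the acid ceramidase, had 6223 and 9705 in the G-MDSC arrays, against 4518 and 6574 in the neutrophil arrays (0.51 ± 0.34, adjusted p = 0.347), with overlapping groups.

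The 2 acid phosphatases had the lowest log2 differences of the members with all 4 arrays and each gene's brightest probe set. With the other choices of probe set Ctsz (-2.30) lay below Acp2 (-2.21 and -2.17), and without neutrophils replicate 1 so did Atp6v0d2 (-2.39 against -2.27). Acp5, the tartrate-resistant enzyme of osteoclasts and macrophages, had signals of 331 and 438 in the G-MDSC arrays, against 2693 and 2092 in the neutrophil arrays, a log2 difference of -2.59 ± 0.33 (SE, adjusted p = 0.000506), or 6.02-fold lower in G-MDSC. Acp2, the lysosomal acid phosphatase of most cells, had 366 and 230.4 in the G-MDSC arrays, against 1399.6 and 1468 in the neutrophil arrays, a difference of -2.24 ± 0.35 (SE, adjusted p = 0.00157), or 4.72-fold lower. Its 3 probe sets ran from -2.24 to -1.80, while Acp5 had 1. Both calls held without any 1 array, over differences of -2.40 to -2.78 for Acp5 and -1.92 to -2.56 for Acp2. After median scaling they were -1.97 and -1.62 and did not pass. Of 5 osteoclast markers tested, 2 were lower in G-MDSC (Tnfrsf11a, -2.23, and Dcstamp, adjusted p = 0.0255) and 1 was higher (Nfatc1, 1.38). Dcstamp was not above the 40th percentile in either G-MDSC array and at least 3.49-fold lower, or 1.53-fold with a common floor. It passed the filter through the neutrophil arrays alone, so its call depends on the signals that admitted it. Dcstamp and Nfatc1 did not pass when G-MDSC replicate 1 or replicate 2 was left out, nor did Tnfrsf11a without replicate 1. After median scaling Nfatc1 did not pass either. In the same arrays 10 of the 19 macrophage markers were lower.

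None of the 4 proton pump subunits passed the threshold in limma, and 0 had an unadjusted p under 0.05. Atp6v0d1, the d subunit of most tissues, had 10453 and 11158 in the G-MDSC arrays, against 10672 and 8430.0 in the neutrophil arrays (log2 difference 0.19 ± 0.30, adjusted p = 0.709), and Atp6v1a, the catalytic subunit, had 6759.6 and 5780.4 in the G-MDSC arrays, against 5941 and 3816 in the neutrophil arrays (0.39 ± 0.32, adjusted p = 0.45), with overlapping arrays for both. Atp6v1h, a regulatory subunit, had 1689.8 and 1350.1 in the G-MDSC arrays, against 2056 and 2332 in the neutrophil arrays (-0.53 ± 0.31, adjusted p = 0.276), and its other probe set was 0.52. Atp6v0d2, the d subunit of osteoclasts and some macrophages, had 27.3 and 44 in the G-MDSC arrays, against 60.3 and 250.4 in the neutrophil arrays. Both G-MDSC arrays were below the 40th percentile of their array, so only a bound can be given, at least 2.19-fold lower in G-MDSC (fitted adjusted p = 0.275). With the highest of the 4 percentiles as a common floor there was no bound above 1. Of 14 other pump subunits tested, 0 were higher and 0 lower in the same limma fit, with 3 at an unadjusted p under 0.05, and 2 were lower without neutrophils replicate 2. Grn, which encodes progranulin, a secreted and lysosomal protein, had 12889 and 13942 in the G-MDSC arrays, against 14953 and 11242 in the neutrophil arrays (0.048 ± 0.31, adjusted p = 0.931) and overlapping groups.

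Other genes of the lysosome and of its supply also went both ways, among them 8 protease inhibitors, 16 sorting receptors and their enzymes and 5 transcription factors. Of 95 listed, 83 had a probe set and 79 were tested, of which 10 were higher in G-MDSC and 13 lower (with neutrophils replicate 2 left out 10 and 18, with neutrophils replicate 1 left out 19 and 16, with G-MDSC replicate 1 left out 4 and 8, with G-MDSC replicate 2 left out 3 and 9, and after median scaling 6 and 5). Of all 13139 genes tested, 8.30% were higher and 8.05% lower with all 4 arrays, and these shares moved with the arrays and the scaling as well. Of 10 other proteases, 2 were higher and 5 lower. Ctsg, cathepsin G of azurophil granules, had 2677 and 1068 in the G-MDSC arrays, against 92.7 and 34.4 in the neutrophil arrays, a log2 difference of 4.53 ± 0.51 (SE, adjusted p = 0.000219). Ctse, an aspartic protease of endosomes, had 2832 and 3209 in the G-MDSC arrays, against 731 and 745 in the neutrophil arrays, a difference of 2.01 ± 0.30 (SE, adjusted p = 0.00136). In the other direction, the serine carboxypeptidase Scpep1 had 322 and 332 in the G-MDSC arrays, against 3573 and 4076 in the neutrophil arrays, a difference of -3.48 ± 0.31 (SE, adjusted p = 4.7e-05). Lgmn, the asparaginyl protease that activates other cathepsins, had 474 and 425 in the G-MDSC arrays, against 2231 and 4343 in the neutrophil arrays, a difference of -2.75 ± 0.37 (SE, adjusted p = 0.000678). Ctsc, the dipeptidyl peptidase that activates granule serine proteases such as Ctsg, had 5121 and 5769 in the G-MDSC arrays, against 15488 and 24664 in the neutrophil arrays, a difference of -1.84 ± 0.33 (SE, adjusted p = 0.00335), opposite in direction to Ctsg. These 5 calls held without any 1 array, and after median scaling Lgmn (-2.12) and Ctsc (-1.21) did not pass. Of 5 protease inhibitors tested, Cstb, the cytosolic inhibitor of cathepsins, was lower (log2 difference -1.54 ± 0.31, adjusted p = 0.00641) and none was higher. Without G-MDSC replicate 1 Cstb was -1.41 and did not pass. After median scaling Cstb did not pass either.

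Of 6 other glycosidases and sulfatases, the sulfatases Galns (log2 difference 1.28 ± 0.34, adjusted p = 0.0271) and Arsg (1.19 ± 0.32, adjusted p = 0.0278) were higher and none was lower, and neither passed without G-MDSC replicate 1 (1.0 and 1.10) or 2 (1.55 and 1.27). Of 7 other lipid genes, Pla2g15, the lysosomal phospholipase A2, was higher (1.23 ± 0.37, adjusted p = 0.0409), a call made with all 4 arrays and lost without either G-MDSC array or neutrophils replicate 2 (1.28, 1.18 and 0.80). Cln8, a membrane protein that carries lysosomal enzymes out of the endoplasmic reticulum, was lower (-2.62 ± 0.43, adjusted p = 0.00211). Of 16 other membrane proteins and transporters, 2 were higher and 3 lower, where 8.30% of all genes tested were higher and 8.05% lower. Ctns, the cystine exporter, had 487 and 605 in the G-MDSC arrays, against 162 and 132 in the neutrophil arrays (1.78 ± 0.38, adjusted p = 0.00906), and Tpcn1, a sodium and calcium channel, differed by 1.35 ± 0.37, adjusted p = 0.0292. Both missed the threshold without either G-MDSC array. Slc15a3, a histidine and peptide transporter, had 4270.5 and 5798 in the G-MDSC arrays, against 20742 and 19742 in the neutrophil arrays (-2.02 ± 0.31, adjusted p = 0.00143). Mcoln2, a channel related to Mcoln1, differed by -1.66 ± 0.43 (adjusted p = 0.0227) and was not called without either G-MDSC array (-1.61 and -1.71). After median scaling neither Slc15a3 nor Mcoln2 passed.

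The factors and sorting proteins that serve lysosomal genes also went both ways. Tfeb, whose protein is the main activator of lysosomal genes, had signals of 2067 and 2081 in the G-MDSC arrays, against 1129.5 and 934 in the neutrophil arrays, a log2 difference of 1.0 ± 0.30 (SE, adjusted p = 0.0453). Its call was lost with quantile normalization (0.86), after median scaling (1.63) and without either G-MDSC array (1.01 and 1.0). The related factor Mitf, of osteoclasts, mast cells and pigment cells, had 457 and 503 in the G-MDSC arrays, against 1739 and 1475 in the neutrophil arrays, a difference of -1.71 ± 0.32 (SE, adjusted p = 0.00431), and it passed without any 1 array but not after median scaling (-1.08). Tfec, another relative found in macrophages, had 184 and 17.8 in the G-MDSC arrays, against 1309 and 1538 in the neutrophil arrays, a difference of -4.12 ± 0.65 (SE, adjusted p = 0.00177), with G-MDSC replicate 2 far below replicate 1. Without G-MDSC replicate 1 it was -5.41 and without replicate 2 -2.84, both past the threshold. Tfe3 had 1316 and 1407 in the G-MDSC arrays, against 3136 and 1517 in the neutrophil arrays (log2 difference -0.68 ± 0.37, adjusted p = 0.253), where neutrophils replicate 1 was far above the other 3 arrays, and it passed without neutrophils replicate 2 (-1.20). Of 16 sorting receptors and their enzymes, 2 were higher and 1 lower, where 8.30% of all genes tested were higher and 8.05% lower. Counts this near those shares are no result about the group. Sort1, a receptor that carries prosaposin and sphingomyelinase to the lysosome without the mannose 6-phosphate tag, had 4089 and 2903 in the G-MDSC arrays, against 797 and 647 in the neutrophil arrays, a difference of 2.24 ± 0.32 (SE, adjusted p = 0.00109), and passed without any 1 array. Vps18, part of the complex that fuses vesicles with lysosomes, differed by 1.26 ± 0.32, adjusted p = 0.0197. Gnptab, the enzyme that begins the mannose 6-phosphate tag, had 309 and 256 in the G-MDSC arrays, against 829 and 687 in the neutrophil arrays, a difference of -1.37 ± 0.34 (SE, adjusted p = 0.0193). Vps18 and Gnptab did not pass without either G-MDSC array (1.15 and -1.50 without replicate 1, 1.36 and -1.25 without replicate 2). Gnptab did not pass after median scaling either.

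**Figure D4:**
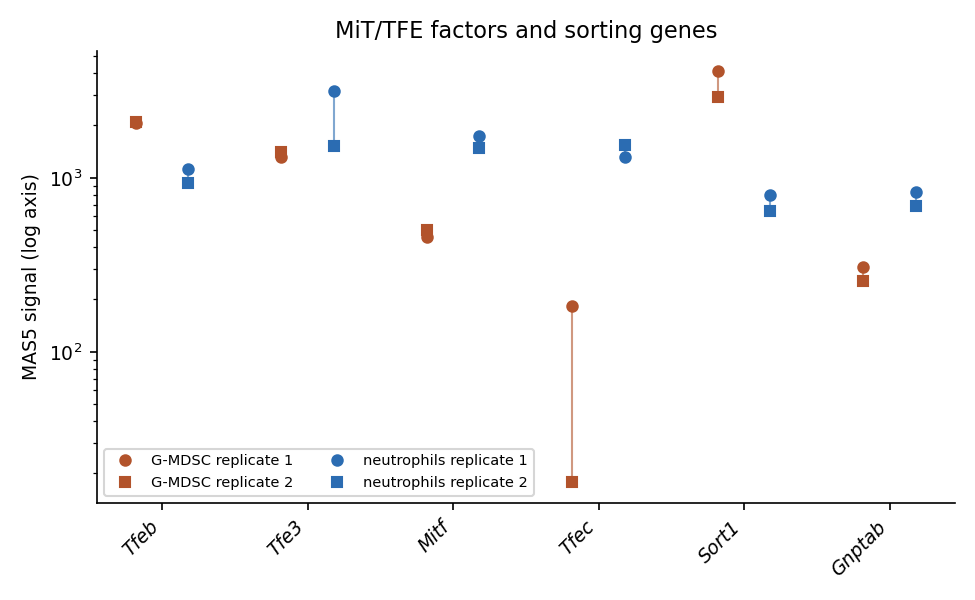
MAS5 signal (vertical log axis) of 4 transcription factors of lysosomal genes and of the sorting genes Sort1 and Gnptab in each array, G-MDSC in orange to the left and neutrophils in blue to the right of each gene, circles for replicate 1 and squares for replicate 2. Tfeb and Sort1 are higher in both G-MDSC arrays, Mitf, Tfec and Gnptab lower, and for Tfe3 the 2 neutrophil arrays stand apart from each other. Heights of different genes are not comparable.

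Markers of the labelled cells and of others were read in the same fit, which called 8.30% of all genes tested higher and 8.05% lower. The neutrophil genes S100a8 and S100a9 were bright in all 4 arrays, from 53178 to 85891 and from 44932 to 81106 (chosen after their values were seen), and the 13 neutrophil markers summed to 323133 and 379934 in the G-MDSC arrays, against 220288 and 273743 in the neutrophil arrays. Of the 13, 7 were higher in G-MDSC, led by the granule genes Mpo (5.12) and Camp (5.10), and 0 were lower. Adgre1, which encodes the F4/80 antigen used for depletion of the neutrophil samples, had 817 and 643 in the G-MDSC arrays, against 4847 and 7136 in the neutrophil arrays, a log2 difference of -2.99 ± 0.33 (SE, adjusted p = 0.000172). After median scaling it was -2.36 and did not pass (adjusted p = 0.0766). The scavenger receptors Msr1 and Marco were lower by more, with 65.1 and 75.1 in the G-MDSC arrays, against 4447 and 5821 in the neutrophil arrays for Msr1 (-5.89) and 24.9 and 90.6 in the G-MDSC arrays, against 3142 and 2311 in the neutrophil arrays for Marco (-5.36). Csf1r, the receptor of the macrophage growth factor, had 11012 and 11272 in the G-MDSC arrays, against 16081 and 17388 in the neutrophil arrays (log2 difference -0.59 ± 0.29, adjusted p = 0.213). Without neutrophils replicate 2, 10 of the 19 macrophage markers were still called lower and 2 higher. The mast cell protease Cma1 was not above the 40th percentile in either G-MDSC array, at least 41.3-fold lower in G-MDSC (at least 18.1-fold with a common floor, adjusted p = 2.17e-05). For Mcpt4 the bounds were at least 18.1-fold and 7.9-fold (adjusted p = 6.08e-05). Cma1, Mcpt4 and Tpsb2 (the last chosen after its values were seen) passed the filter through the neutrophil arrays alone. Their calls therefore depend on the neutrophil signals that admitted them. Most of the mast cell sum came from Hdc, with 15256 and 18052 in the G-MDSC arrays, against 24349.8 and 24016 in the neutrophil arrays (log2 difference -0.54 ± 0.30, adjusted p = 0.258), and Kit had 2003 and 3146 in the G-MDSC arrays, against 1551 and 417 in the neutrophil arrays (1.62 ± 0.51, adjusted p = 0.0531), both chosen after their values were seen. Mast cells also carry many lysosomal hydrolases in their granules. Of 8 B and plasma cell markers tested, Jchain (4.49) and Igha (4.0) were higher in G-MDSC and Sdc1 (-2.30, limma adjusted p = 0.0211) was lower. Of 7 T and NK cell markers Nkg7 (1.83, limma adjusted p = 0.0448) was higher. With quantile normalization neither Sdc1 nor Nkg7 passed. Nkg7 was also not called without G-MDSC replicate 1, nor Sdc1 without G-MDSC replicate 2. Of 5 erythroid markers limma called 0, with 0 at an unadjusted p under 0.05 and 2 called higher without neutrophils replicate 2.

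The 14 calls differed in how far they depended on a choice of processing. Acp5 and Acp2 passed under 15 of 17 alternatives, and Ctsz under 13. Arsb, Galc and Cd68 passed under 12 each, and Arsb was reversed under 1, its second brightest probe set. Man2b1 and Ppt1 passed under 11, Lamp1, Glb1, Fuca1 and Smpd1 under 10, Npc2 under 9 and Lipa under 6. Without moderation of the variance across genes limma called 0 of all 13139 genes, and so 0 members. Of the members, 15 were then at an unadjusted p under 0.05, against 22 with moderation. With 1 common prior variance in place of an intensity trend limma called 0 members higher and 2 lower, Acp5 and Acp2. It then called 479 of all genes, against 2149 as reported. With the second brightest probe set of each gene, or its only kept probe set, limma called 1 member higher and 5 lower. Acp5, Cd68, Lamp1 and Glb1 each had 1 kept probe set. Their tallies thus include alternatives of probe set that could not change their differences.

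**Figure D5:**
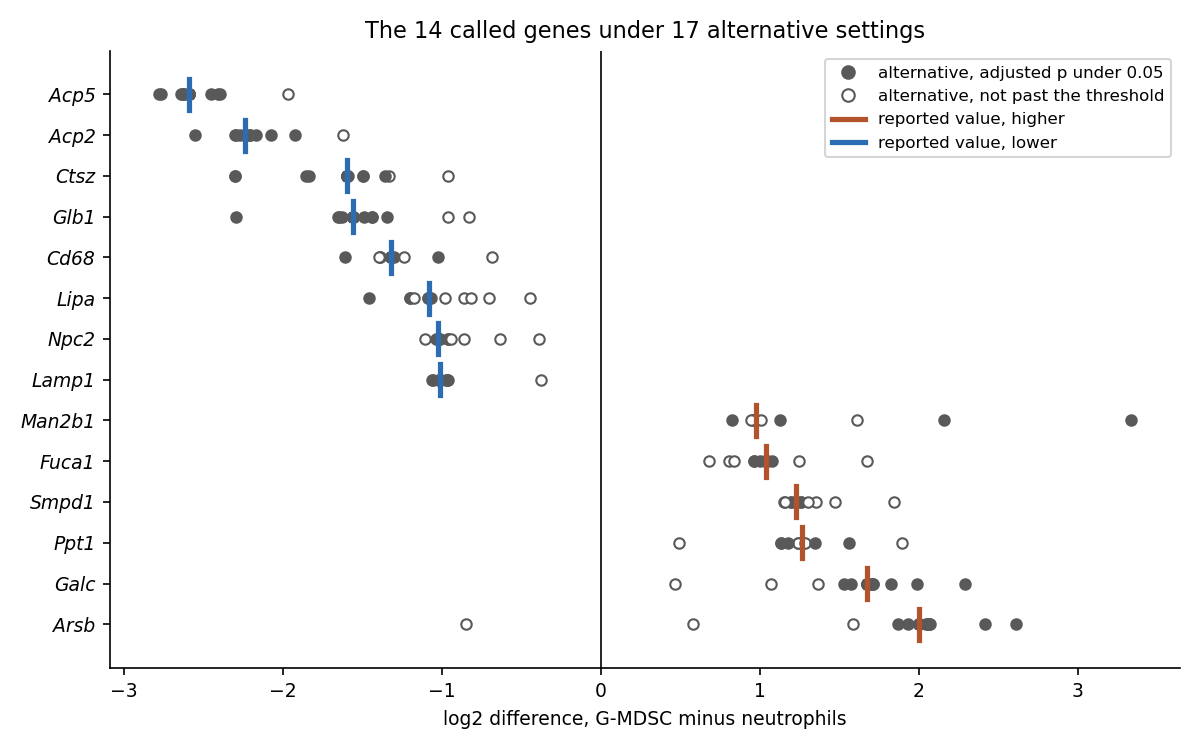
Log2 difference, G-MDSC minus neutrophils (horizontal axis), of the 14 called lysosomal genes under 17 alternative settings (filled circles past the threshold, open circles not) and as reported (orange bars for higher, blue for lower). The 8 lower genes stay below 0 under every alternative, and of the 6 higher genes Arsb crosses to -0.85 with its second brightest probe set.

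Several genes had more than 1 probe set, which allows a check within the arrays. The 44 genes had 105 probe sets with a single symbol, and 98 passed the filter. Of 31 members with several, the probe sets of 14 disagreed in sign, among them the called genes Arsb, Npc2 and Ppt1 of 10 called genes with several. In these 3 the probe set of opposite sign was dim, at 20.3 to 204 for Arsb, 83.7 to 217 for Npc2 and 76.7 to 181 for Ppt1. The probe sets used read 331 to 1926, 7592 to 16487 and 1676 to 4358. Each dim set was highest in neutrophils replicate 2, whose 40th percentile was 133. Probe sets of a gene can read different ends or forms of a transcript, and which of them follows the level of the protein-coding RNA was not tested.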

How the data were processed

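Total RNA of 2 G-MDSC and 2 neutrophil samples was hybridised to Affymetrix mouse arrays. GCOS 1.4 and MAS5 are named in the submitters' processing notes. Each deposited intensity is a linear signal, and with 2% of probe sets trimmed at each end the mean is 500 in every array, so the authors had scaled them. Of 45101 probe sets, 64 are controls, and 34945 have 1 gene symbol, 932 several and 9160 none in the platform annotation. Of the single ones, 34741 matched RefSeq (GRCm38.p6) by gene ID and 0 symbols changed. No detection calls were used here. With no read depth on arrays, their number (2 per group) limits the precision.

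Signals were used as log2(signal + 16), which understates changes of dim genes. Probe sets above the 40th percentile of their array in at least 2 of 4 arrays were kept (23403 with 1 symbol), with the brightest kept per gene. G-MDSC minus neutrophils was fitted with limma 3.58.1 in R 4.3.3 (lmFit, eBayes with an intensity trend), two-sided, with Benjamini-Hochberg adjustment over 13139 genes and a threshold of 0.05, after a test on simulated data. Tables, the promoter search and figures used Python 3.11.15, pandas 2.3.3, numpy 2.4.6 and matplotlib 3.10.9. For a group dim in both arrays (at most their 40th percentile), a fold is a bound that sets the bright group's mean against the dim signal or that percentile, whichever is higher. A common floor used the highest of the 4 percentiles.

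Named are all 44 members. The rule asked for 4 signals of called genes, of genes whose probe sets disagree and of the 2 brightest uncalled of each role, and the signals of the rest are given as well. Of other lists, up to 2 called genes per direction with the largest differences are named, with Adgre1, Csf1r, Ctsc, Tfeb, Tfe3 and Mitf. The members and lists were chosen with earlier results of these data known. Alternatives were other pseudocounts (1 and 64), a floor, other filters, scalings, variance models and probe sets, a block for the replicate number, and each array left out in turn. Under the probe set alternatives, a gene with 1 kept probe set kept it. The alternatives for other lists and the common floor were added after seeing the data.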

Additional observations from a re-analysis of the deposited data

How the results depend on the processing

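Reported were 6 members higher and 8 lower, and the 8 stayed below 0 under all 17 alternatives. The counts were 0 to 10 higher and 3 to 14 lower with 1 array left out, 3 and 0 with median scaling, 0 and 2 without the intensity trend, 0 and 0 without moderation, 2 and 7 with each gene's median probe set, and 1 and 5 with its second brightest. Without the filter 5 were higher and 4 lower. Calls over all genes moved as well, from 2149 as reported to 1311 with median scaling, 479 without the intensity trend and 0 without moderation. They were 1875 with the median probe set, 1434 with the second brightest, 3306 with the replicate block and 3104 with the block and quantile normalization. Without the filter 1762 of 18193 genes were called. The replicate numbers did not pair the samples by the labels (r of same-numbered deviations 0.23, from 2 pairs), and the replicate block gave 8 and 12, or 8 and 13 with quantile normalization. The median of the members was 0.31 with median scaling, 0.0074 with the median probe set and -0.15 with the second brightest, and ran from -0.31 to -0.10 with 1 array left out. Minus the median of all genes it ran from -0.33 (stricter filter) to 0.25 (without neutrophils replicate 1), and was also above 0 with no filter (0.0097), the median probe set (0.22) and the second brightest (0.078).

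With median scaling the role medians were 0.29 (membrane), 0.12 (proteases), 0.89 (glycosidases), 1.37 (lipid), -1.79 (acid phosphatases) and 0.46 (pump). The glycosidase median was 0.12 with quantile normalization, with or without the block, 0.10 with the median probe set and 0.10 with the second brightest. That of the acid phosphatases was -2.26 with a pseudocount of 64. The pump's was 0.19 with the stricter filter, which left out Atp6v0d2, 0.091 with the median probe set and 0.29 with the second brightest. Leaving out 1 array gave -0.54 to -0.27 (membrane), -0.85 to -0.33 (proteases), 0.48 to 0.99 (lipid), 0.093 to 0.28 (glycosidase) and -0.23 to -0.12 (pump).

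Reversed with median scaling were Lamp2 (0.25), Laptm5 (0.63), Npc1 (0.33), Mcoln1 (0.44), Ctsd (0.53), Ctsk (0.12), Ctsl (0.28), Tpp1 (0.18), Gaa (0.026), Gla (0.29), Naglu (0.24) and Atp6v1h (0.10), where the median of all genes moved to 0.41. With the second brightest probe set these were Lamp2 (0.25), Laptm5 (0.35), Ctsa (-0.54), Ctsl (0.90), Tpp1 (0.094), Gla (0.42), Idua (-0.052), Sgsh (-0.88), Arsb (-0.85) and Atp6v1h (0.52). With the median of probe sets they were Lamp2 (0.019), Laptm5 (0.52), Ctsl (0.27) and Gla (0.041). Quantile normalization, with or without the block, reversed Laptm5 (0.082) and Ctsd (0.013). With 1 array left out, reversals arose for Laptm5 (-0.14 to 0.13), Mcoln1 (-0.64 to 0.28), Ctsd (-0.26 to 0.041), Ctsk (-1.02 to 0.044), Ctsl (-0.82 to 0.10) and Grn (-0.16 to 0.25). The cause of these reversals was not tested.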
